A study of Mus musculus with 4 samples.

Results

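CD4_Tn is the name that the deposited annotation gave to a group of T cells recovered from mouse mammary tumours, and the annotation itself set the gene Lef1 beside the name. Its members were the barcodes with that name and a column in the deposited count table, which came to 499 cells of 16383 with counts. Of these, 462 carried the barcode suffix 1 and 37 the suffix 2, and they are described apart. Naive T cells are lymphocytes that have left the thymus and not yet met their antigen. They circulate between blood and lymph nodes, which they leave by following sphingosine 1-phosphate, and they are kept quiescent by transcription factors such as LEF1, TCF1 and FOXO1. Central memory T cells share much of this programme after an earlier encounter with antigen, so the cells named CD4_Tcm (310 with counts, 258 of suffix 1 and 52 of suffix 2) were the closest reference in the data.

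The cells came from tumours of Mif-depleted 4T1 cells and of wild-type 4T1 cells, with 2 samples in each group and 3 tumours combined in each sample. 4T1 is a mammary carcinoma line of BALB/c origin, and Mif encodes the cytokine macrophage migration inhibitory factor. In both groups the dissociated tumours were sorted for CD45-positive, propidium iodide-negative cells before droplet single-cell RNA sequencing. No label or header tied a barcode suffix to a sample, so no value here compares Mif-depleted with wild-type tumours, and each suffix was taken as 1 sample. Levels are unique molecular identifiers (UMIs) of a gene per 10000 UMIs counted, summed over the cells of a name within a suffix. The 95% intervals in brackets are exact and account for the number of UMIs or cells alone, since there were no replicates and no test was run. The 4099 genes counted here lie on chromosome 1 to part of chromosome 5. Mif, its receptor chain Cd74 and the T cell genes Cd4, Cd8a, Cd3e, Tcf7, Ccr7, Il7r and Foxp3 were not analysed here, so the CD4 identity in the name was not checked on Cd4 itself.

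Depth was close between the compared names. In suffix 1 the CD4_Tn cells held 301483 UMIs with a median of 623 per cell (185 to 2669), and the CD4_Tcm cells 160451 UMIs with a median of 590. In suffix 2 the CD4_Tn cells held 35349 UMIs with a median of 875, and the CD4_Tcm cells 49185 with a median of 896.5. Suffix 2 therefore rests on far fewer molecules and its intervals are wide. Pairs of suffixes shared 24 to 42 barcode sequences, and between 0 and 3 of those in any pair belonged to a CD4_Tn cell.

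CD4_Tn cells were a small and uneven part of the sorted cells. Over all 45781 annotated barcodes there were 895 with the name, and they took 3.51% [3.20, 3.84] of suffix 1, 1.31% [1.12, 1.53] of suffix 2, 0.301% [0.200, 0.434] of suffix 3 and 2.19% [1.93, 2.47] of suffix 4. The 4 exact binomial intervals did not overlap. Within the 5 CD4 names the CD4_Tn share was 41.5%, 15.2%, 11.8% and 21.9% in suffixes 1 to 4, so suffix 1 stood apart on this denominator as well. The number of CD4_Tn cells per CD4_Tcm cell was 1.79 [1.53, 2.09] in suffix 1, 0.677 [0.549, 0.832] in suffix 2, 2.33 [1.15, 5.04] in suffix 3 and 0.861 [0.724, 1.02] in suffix 4. The excess of CD4_Tn over CD4_Tcm in suffix 3 rests on 28 and 12 cells. Counts were used for 26.9% of the cells of suffix 2, and the name took 1.15% [0.810, 1.58] of those and 1.37% [1.14, 1.64] of the rest.

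**Figure D1:**
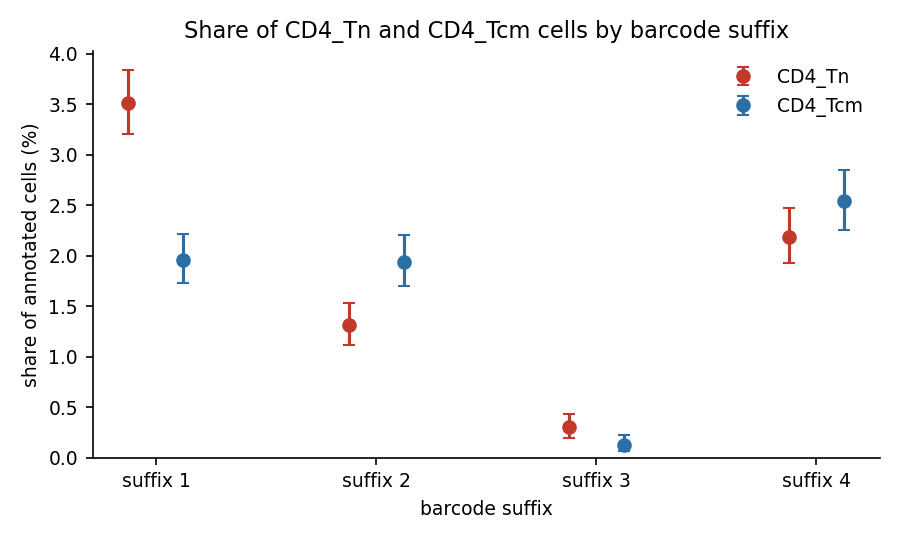
Share of CD4_Tn (red) and CD4_Tcm (blue) among the annotated cells of each barcode suffix, in percent, with exact binomial 95% intervals as bars. CD4_Tn runs from 0.301% in suffix 3 to 3.51% in suffix 1, and lies above CD4_Tcm in suffixes 1 and 3.

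The genes expected of naive T cells were present but did not all favour the naive name. Lef1 (chr3:131110471-131224356, GRCm38), which encodes a transcription factor of the WNT pathway needed in early T cells, stood at 41.5 in CD4_Tn cells, against 35.9 in CD4_Tcm cells of suffix 1. In suffix 2 it stood at 21.2 in CD4_Tn cells and 27.7 in CD4_Tcm cells. The log2 ratio of CD4_Tn over CD4_Tcm was 0.21 [0.06, 0.35] in suffix 1 and -0.38 [-0.81, 0.04] in suffix 2, so the direction was not the same in both. Of 22 names ranked, CD4_Tn had the highest Lef1 level in suffix 1 and CD4_Tcm in suffix 2. Since the annotation puts Lef1 beside the name, its level is no independent check of the label.

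Dapl1 (chr2:59484653-59505020), the second marker taken for these cells, encodes a protein related to death-associated protein and is known from naive and memory T cells of the mouse. It stood at 12.7 in CD4_Tn cells and 27.8 in CD4_Tcm cells of suffix 1. In suffix 2 it stood at 10.7 in CD4_Tn cells and 24.2 in CD4_Tcm cells. Dapl1 was thus lower in CD4_Tn cells in both suffixes, with log2 ratios of -1.13 [-1.33, -0.93] and -1.17 [-1.74, -0.63], while the other CD4 names had levels of 0.92 or less in suffix 1.

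A gene is called past 2-fold here where its whole interval lay beyond a 2-fold ratio, and beyond counting error where the interval excluded equal levels, among genes with 20 or more UMIs over both sides. Of the 7 genes measured from the list of naive and memory T cells, 5 stood higher than in all other cells past 2-fold in each suffix. Of all genes compared, 9.25% of 3925 did so in suffix 1 and 2.41% of 3486 in suffix 2. Against CD4_Tcm, 3 of the 7 stood higher and 4 lower in suffix 1 beyond counting error, with a median log2 ratio of -0.55. Of all 1802 genes compared, 11.7% stood higher and 21% lower, with a median of -0.20. S1pr1, the receptor for sphingosine 1-phosphate that guides exit from lymph nodes, stood at 30.2 in CD4_Tn cells and 14.1 in CD4_Tcm cells of suffix 1, and at 18.7 and 11.4 in suffix 2. It was highest in CD4_Tn in both suffixes. Foxo1, whose product helps to maintain recirculation genes in naive cells, stood at 7.13 in CD4_Tn cells and 4.74 in CD4_Tcm cells of suffix 1. The survival gene Bcl2 stood at 16.4 in CD4_Tn cells and 23.9 in CD4_Tcm cells of suffix 1, and at 14.7 and 16.7 in suffix 2. Arl4c, a small GTPase gene, stood at 8.79 in CD4_Tn cells and 14.4 in CD4_Tcm cells. Summed over the list, the level was 124 [120, 128] in CD4_Tn cells and 140 [134, 145] in CD4_Tcm cells of suffix 1, against 58.9 in CD4_Tfh, 22.5 in CD4_Th and 30.3 in CD4_Treg. Without Lef1 and Dapl1 it was 70.1 in CD4_Tn cells and 75.8 in CD4_Tcm cells. CD4_Tn is kept here as the authors' name, and the naive list as a whole was no higher in it than in CD4_Tcm.

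**Figure D2:**
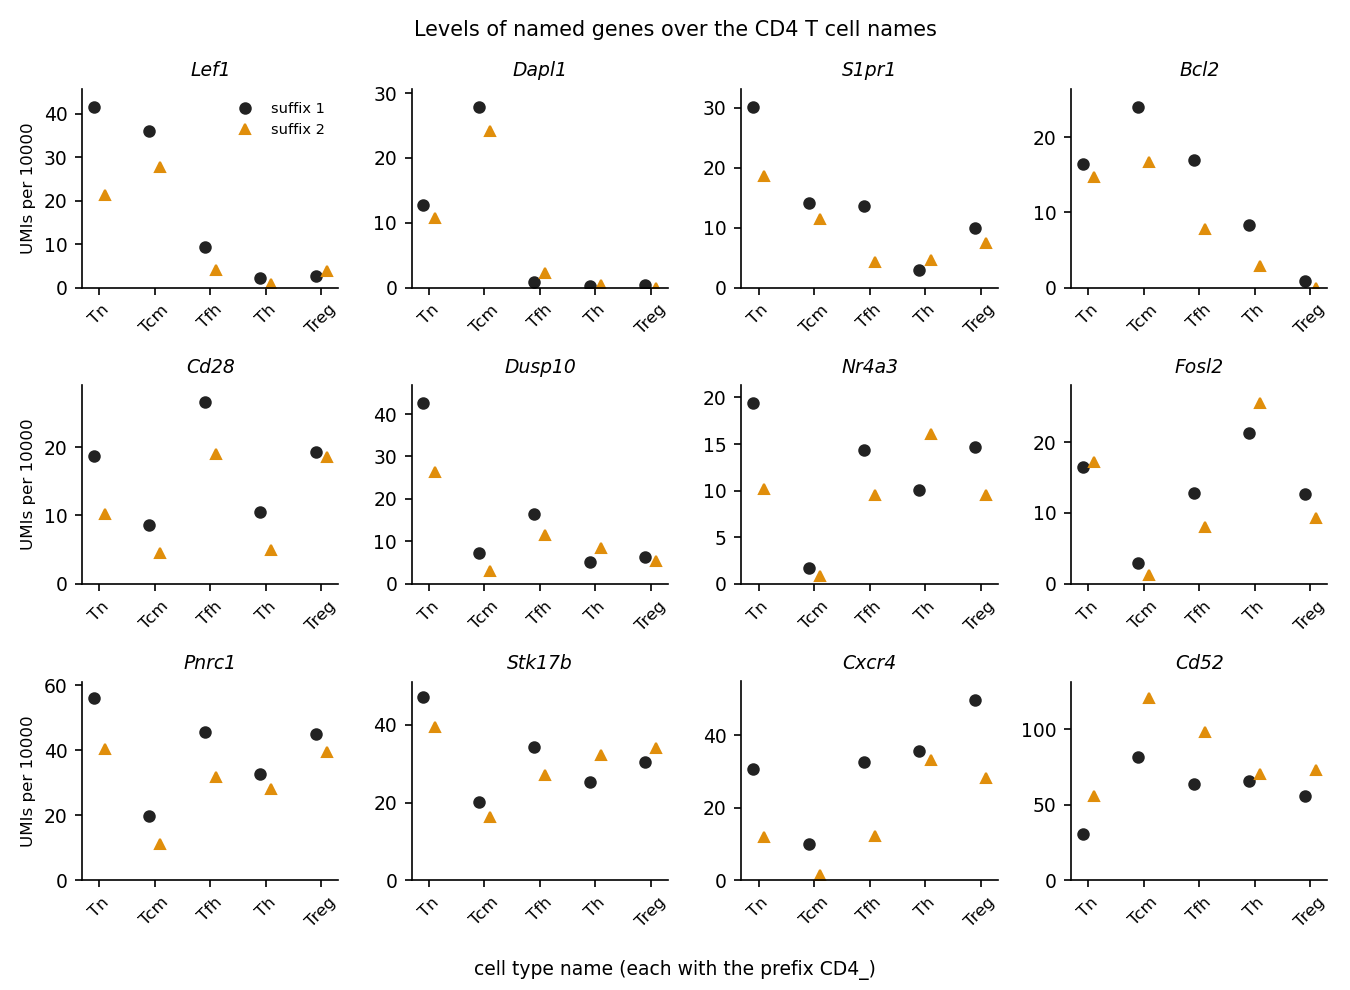
Level of each gene in the 5 CD4 T cell names, in UMIs per 10000 UMIs, for suffix 1 (black circles) and suffix 2 (orange triangles). Points are sums over all cells of a name without an error bar. Dusp10 is highest in CD4_Tn in both suffixes at 42.6 and 26.3, Dapl1 and Bcl2 are highest in CD4_Tcm, and Nr4a3 is lowest in CD4_Tcm.

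Genes of T cell receptor signalling were found in CD4_Tn cells. All 11 measured genes of the list of T cell receptor signalling stood past a 2-fold ratio to all other cells in suffix 1, where 9.25% of the 3925 genes with 20 or more UMIs over both sides did so, and 6 of the 11 did in suffix 2, where 2.41% of 3486 genes did. Against CD4_Tcm, 3 of 11 stood higher and 1 lower beyond counting error in suffix 1, beside 11.7% and 21% of all genes. In suffix 2, 1 of 9 stood higher and 2 lower, beside 10.8% and 10.6%. No interval lay wholly past 2-fold in either suffix. The list summed to 126.9 in CD4_Tn cells and 114.1 in CD4_Tcm cells of suffix 1. The sums in CD4_Tfh, CD4_Th and CD4_Treg were 168.8, 103.4 and 165.7. Cd247, which encodes the zeta chain of the receptor complex, stood at 6.004 in CD4_Tn cells and 7.54 in CD4_Tcm cells of suffix 1, and at 5.37 and 9.76 in suffix 2. The proximal kinase gene Lck stood at 9.85 in CD4_Tn cells and 11.1 in CD4_Tcm cells of suffix 1, and at 5.66 and 14.2 in suffix 2, with log2 ratios of -0.17 [-0.44, 0.10] and -1.33 [-2.13, -0.60]. Prkcq, the protein kinase C gene of the immunological synapse, stood at 5.94 in CD4_Tn cells and 5.61 in CD4_Tcm cells, and both exceeded every other name of suffix 1. Cd28, the costimulatory receptor that seconds the antigen signal, stood further apart. It stood at 18.6 in CD4_Tn cells and 8.60 in CD4_Tcm cells of suffix 1, and at 10.2 and 4.47 in suffix 2, with log2 ratios of 1.12 [0.84, 1.40] and 1.19 [0.38, 2.02]. Tnfrsf1b, which encodes the TNF receptor TNFR2, had 87 UMIs in CD4_Tn cells and 10 in CD4_Tcm cells of suffix 1, levels of 2.89 and 0.623. All other cells of suffix 1 had a higher Tnfrsf1b level, at 5.20. In suffix 2 it had 7 and 4 UMIs, and the interval of the log2 ratio to CD4_Tcm, -0.69 to 3.50, included equal levels. The adhesion receptor gene Cd2 stood at 18.7 in CD4_Tn cells and 12.0 in CD4_Tcm cells of suffix 1.

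Set against all other cells of suffix 1, 363 genes stood higher in CD4_Tn past 2-fold and 340 lower, 9.25% and 8.66% of the 3925 compared. Beyond counting error alone, 24.6% stood higher and 22% lower. In suffix 2, 84 of 3486 genes stood higher past 2-fold (2.41%) and 107 lower (3.07%), and 8.09% higher and 8.89% lower beyond counting error. The cells were named from these same data, so the contrast describes the name. Lef1 led with a log2 ratio of 6.13 [6.02, 6.24], at 41.5 in CD4_Tn cells and 0.592 in all other cells, followed among genes with over 100 UMIs in the CD4_Tn cells by Dapl1 at 5.45, Dusp10 at 5.35, Prkcq at 4.99 and S1pr1 at 4.92. The other 10 of the 15 highest had 11 to 58 UMIs in the CD4_Tn cells. They were Gm26771, Lhfpl3, Gabrr2, Lef1os1, Gm9889, Rnf32, Gm42722, Gm11579, Scg5 and Lypd6b. Lef1os1 is named as the opposite-strand partner of Lef1, and the sources used here do not say whether the counting used strand. The 10 lowest were Olfm1, Themis2, Dhrs9, Chil1, Fnip2, Col5a2, Il1r2, Cdca8, S100a9 and S100a8. Among them S100a8 and S100a9 encode neutrophil calprotectin, Il1r2 the decoy receptor for interleukin-1, Col5a2 a fibrillar collagen chain and Cdca8 a mitotic protein. The CD4_Tn cells had few UMIs per cell, and this ratio moves with the scale. The median log2 ratio over all genes was -0.29 as reported, -0.68 without S100a8 and S100a9 in the totals, 0.17 without ribosomal protein genes and -2.11 in UMIs per cell. The number of genes higher and lower was 218 and 490, 594 and 224, and 51 and 1648 on those 3 scales. Small ratios to all other cells, such as those of Arl4c (log2 0.82) and of Ptprc (log2 1.24), a gene of the receptor signalling list, are accordingly negative in UMIs per cell.

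Between CD4_Tn and CD4_Tcm the scale moved the median little, and the median log2 ratio of -0.20 was -0.13 in UMIs per cell. Both names were given from these same data, so this contrast too describes the names. In suffix 1, 29 of 1802 genes (1.61%) stood higher in CD4_Tn past 2-fold and 9 (0.499%) lower. Beyond counting error alone, 210 stood higher (11.7%) and 378 lower (21%). Among those past 2-fold with over 100 UMIs over both names, the highest ratios were those of Nr4a3, Pmepa1, Dusp10 and Fosl2, and the lowest included those of Gbp7, Cd84 and Cd52. In UMIs per cell, 33 genes stood higher past 2-fold and 6 lower, and Gbp7 and Cd84 were among those no longer past it.

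**Figure D3:**
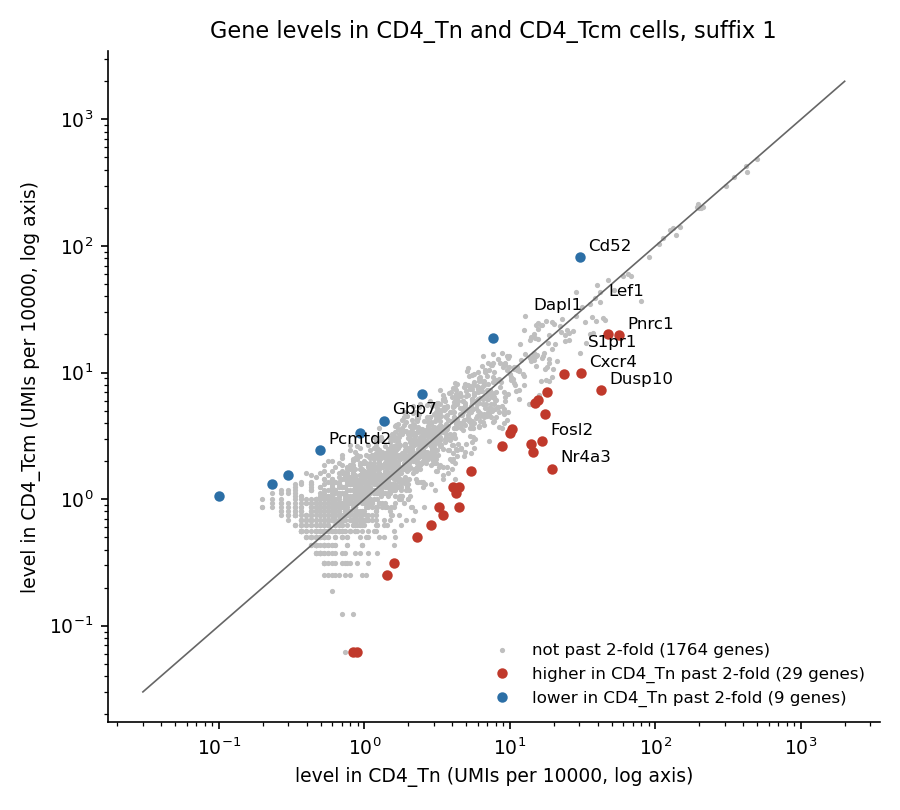
Level of each of 1802 genes in CD4_Tn (x axis) and CD4_Tcm (y axis) of suffix 1, in UMIs per 10000 UMIs on log axes, with the line of equal levels. The 29 genes higher in CD4_Tn past 2-fold (red) lie below the line and the 9 lower ones (blue) above it.

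Nr4a3 (chr4:48045153-48086447) and Nr4a2 (chr2:57106830-57124003) encode orphan nuclear receptors that T cells switch on rapidly after receptor engagement. Nr4a3 stood at 19.4 in CD4_Tn cells and 1.75 in CD4_Tcm cells of suffix 1, and at 10.2 and 0.813 in suffix 2. The log2 ratios were 3.47 [2.93, 4.07] and 3.65 [2.17, 5.60], and that of suffix 1 was the highest of any gene with over 100 UMIs over both names. CD4_Tn ranked 3 of 22 names for Nr4a3 in suffix 1 behind 2 dendritic cell names, while CD4_Tcm ranked 20. CD4_Tfh, CD4_Th and CD4_Treg had 14.4, 10.1 and 14.6, so the low value was that of CD4_Tcm. Nr4a2 stood at 5.44 in CD4_Tn cells and 1.68 in CD4_Tcm cells of suffix 1, and at 6.22 and 2.44 in suffix 2. For this gene CD4_Tfh, CD4_Th and CD4_Treg of suffix 1 lay above both, at 15.8, 15.6 and 10.4. Because both genes stood higher than in CD4_Tcm, the bases upstream of each start site are shown, from RefSeq on GRCm38.p6. They run 5′ to 3′ along the gene and stop at the first annotated exon, and capitals mark TGACG or its reverse complement CGTCA, the core that CREB-family factors are known to bind.
Nr4a3 (chr4:48045055-48045152, plus strand): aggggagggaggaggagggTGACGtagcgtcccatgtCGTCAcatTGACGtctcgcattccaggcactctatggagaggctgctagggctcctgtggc
Nr4a2 (chr2:57124004-57124253, minus strand): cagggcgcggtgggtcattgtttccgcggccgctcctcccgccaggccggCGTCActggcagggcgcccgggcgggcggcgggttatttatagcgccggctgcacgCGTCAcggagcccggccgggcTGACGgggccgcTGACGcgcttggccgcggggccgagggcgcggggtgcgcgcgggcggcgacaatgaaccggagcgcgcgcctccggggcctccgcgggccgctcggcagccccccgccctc
The stretch of Nr4a3 holds 3 copies of the motif and that of Nr4a2 holds 4. In the full 250 bases before the RefSeq start both had 4 copies. At least 4 copies were found in 0.137% of 32851 mouse windows of that length, and at least 1 in 17.8%. Of the 29 genes higher than in CD4_Tcm, 22 had a window in the table and 7 of those held the motif on either strand, 2 of them with at least 4 copies. The pair was chosen by its values, so the rarity of 4 copies says nothing of the contrast. A match describes the letters and says nothing of binding.

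Dusp10 (chr1:184013302-184075636), which encodes a phosphatase that switches off the JNK and p38 kinases, was highest in CD4_Tn of all 22 names in both suffixes. It stood at 42.6 in CD4_Tn cells and 7.29 in CD4_Tcm cells of suffix 1, and at 26.3 and 3.05 in suffix 2. The log2 ratios to CD4_Tcm were 2.55 [2.27, 2.83] and 3.11 [2.31, 4.00], and CD4_Tfh, next in both suffixes, had 16.4 and 11.5. The AP-1 gene Fosl2 (chr5:32135801-32157842) stood at 16.6 in CD4_Tn cells and 2.87 in CD4_Tcm cells of suffix 1, and at 17.3 and 1.22 in suffix 2. Here CD4_Tcm was again at the low end of all names, ranking 21 and 22 of 22.

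Pmepa1, whose product holds back SMAD signalling below the TGF-beta receptor, stood at 14.4 in CD4_Tn cells and 2.37 in CD4_Tcm cells of suffix 1, and at 9.62 and 3.46 in suffix 2. Skil, which encodes the SMAD corepressor SnoN, stood at 17.5 in CD4_Tn cells and 4.67 in CD4_Tcm cells of suffix 1, and at 11.6 and 5.29 in suffix 2. Tgif2, another SMAD-linked repressor gene, stood at 2.29 in CD4_Tn cells and 0.499 in CD4_Tcm cells of suffix 1, but at 0.566 and 0.610 in suffix 2. Skil and Tgif2 were singled out after their values were seen. For Pmepa1, CD4_Tn ranked 12 of 22 names and CD4_Tcm 20.

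The rest of the 10 highest ratios belonged to Neurl3, Map1lc3a and 4 genes with few UMIs. Neurl3, a ubiquitin ligase gene, stood at 14.0 in CD4_Tn cells and 2.74 in CD4_Tcm cells of suffix 1, and at 9.34 and 3.25 in suffix 2. Map1lc3a, of the autophagy protein LC3A, stood at 4.48 in CD4_Tn cells and 0.873 in CD4_Tcm cells of suffix 1, and at 4.53 and 0.203 in suffix 2. Zbtb10 and the Src-family kinase gene Yes1 had 27 and 25 UMIs in CD4_Tn cells and 1 each in CD4_Tcm cells of suffix 1, with intervals of the log2 ratio from 1.24 to 9.20 and from 1.12 to 9.09. Ankrd50 had 43 UMIs in CD4_Tn cells and 4 in CD4_Tcm cells, and Spsb1 had 48 and 5. In suffix 2 Spsb1 stood at 0.849 in CD4_Tn cells and 1.02 in CD4_Tcm cells, on 3 and 5 UMIs.

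Pnrc1 and Stk17b lay outside the lists and were picked after their values were seen. Pnrc1, a nuclear receptor coregulator gene, stood at 56.0 in CD4_Tn cells and 19.8 in CD4_Tcm cells of suffix 1, and at 40.5 and 10.98 in suffix 2. Stk17b, which encodes the kinase DRAK2 that tunes the T cell receptor threshold in mice, stood at 47.2 in CD4_Tn cells and 20.1 in CD4_Tcm cells of suffix 1, and at 39.6 and 16.3 in suffix 2. Both genes were highest in CD4_Tn of all 22 names in both suffixes.

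Of the list of lymphocyte transcription factors, 16 of 22 measured members had enough UMIs, and 8 stood higher and 4 lower than in CD4_Tcm beyond counting error in suffix 1, where 11.7% of all genes stood higher and 21% lower. In suffix 2, 0 of 11 stood higher and 1 lower, beside 10.8% and 10.6% of all genes. Runx3, known for its role in CD8 and innate lymphocytes, stood at 14.9 in CD4_Tn cells and 5.80 in CD4_Tcm cells of suffix 1, and at 10.7 and 7.73 in suffix 2. Zbtb7b, which encodes the CD4 lineage factor ThPOK and was looked up after Runx3 was seen, had 20 UMIs in CD4_Tn cells and 21 in CD4_Tcm cells, levels of 0.663 and 1.31. Nfkb1, of the NF-kB family, stood at 10.4 in CD4_Tn cells and 3.55 in CD4_Tcm cells of suffix 1, and at 9.90 and 6.71 in suffix 2. The quiescence factor gene Klf4 stood at 4.05 in CD4_Tn cells and 1.25 in CD4_Tcm cells of suffix 1, and at 1.70 and 1.42 in suffix 2. Bach2, a repressor of effector genes, stood at 5.71 in CD4_Tn cells and 3.99 in CD4_Tcm cells of suffix 1, but at 2.83 and 4.27 in suffix 2. Id3 went the other way, at 4.91 in CD4_Tn cells and 8.10 in CD4_Tcm cells of suffix 1.

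Among 10 genes of trafficking and adhesion with enough UMIs in suffix 1, 5 stood higher and 3 lower than in CD4_Tcm beyond counting error. Their median log2 ratio was 0.78, beside -0.20 over all genes, of which 11.7% stood higher and 21% lower. In suffix 2, 3 of 8 stood higher and 3 lower, where 10.8% of all genes stood higher and 10.6% lower. The median there was 0.064, beside -0.11 over all genes. Past 2-fold in suffix 1, 2 of the 10 stood higher and 1 lower, beside 1.61% and 0.499% of all genes. The genes named next do not include those that stood lower. Cxcr4, the receptor for CXCL12 and one of the receptors reported for MIF, stood at 30.6 in CD4_Tn cells and 9.91 in CD4_Tcm cells of suffix 1, and at 11.9 and 1.42 in suffix 2. CD4_Tfh, CD4_Th and CD4_Treg had 32.7, 35.7 and 49.8 in suffix 1, all above CD4_Tn. Cd44, another chain of the MIF receptor and a marker of antigen experience, stood at 1.49 in CD4_Tn cells and 1.25 in CD4_Tcm cells of suffix 1, the lowest 2 of all 22 names. Rgs2, a regulator of G protein signalling, stood at 23.5 in CD4_Tn cells and 9.66 in CD4_Tcm cells of suffix 1, and at 13.9 and 5.08 in suffix 2. The integrin gene Itga6 stood at 11.5 in CD4_Tn cells and 7.23 in CD4_Tcm cells of suffix 1, but at 5.66 and 5.90 in suffix 2.

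All 8 measured immediate early and stress genes of the list had enough UMIs. In suffix 1, 6 stood higher than in CD4_Tcm and 0 lower beyond counting error, beside 11.7% and 21% of all genes. In suffix 2 the counts were 4 and 0, beside 10.8% and 10.6% of all genes. Dnaja1, a cochaperone of HSP70, stood at 79.2 in CD4_Tn cells and 36.6 in CD4_Tcm cells of suffix 1, and at 44.1 and 28.9 in suffix 2. The mitochondrial chaperone gene Hspd1 stood at 19.4 in CD4_Tn cells and 9.22 in CD4_Tcm cells of suffix 1, and at 14.1 and 12.0 in suffix 2. Jun, the AP-1 gene, stood at 24.7 in CD4_Tn cells and 21.7 in CD4_Tcm cells of suffix 1, within counting error, and Atf3 at 2.62 and 2.37. The list as a whole summed to 261.5 in CD4_Tn cells and 162 in CD4_Tcm cells, against 333.5 in CD4_Tfh, 402 in CD4_Th and 315 in CD4_Treg.

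Of 10 measured genes of T cell activation, 6 had enough UMIs in suffix 1. Of these, 3 stood higher and 1 lower than in CD4_Tcm beyond counting error, beside 11.7% and 21% of all genes. The 3 were Nr4a2, Nr4a3 and Icos. The costimulatory receptor gene Icos stood at 2.16 in CD4_Tn cells and 0.686 in CD4_Tcm cells of suffix 1, against 46.2 in CD4_Treg. Il2ra, of the interleukin-2 receptor alpha chain, had 3 UMIs in 462 CD4_Tn cells and 10 in 258 CD4_Tcm cells of suffix 1, and 0 in the 37 CD4_Tn cells of suffix 2. Tnfsf8, which encodes the CD30 ligand, stood at 0.929 in CD4_Tn cells and 3.30 in CD4_Tcm cells of suffix 1. Ctla4 stood at 1.33 in CD4_Tn cells and 0.935 in CD4_Tcm cells, against 96.0 in CD4_Treg. Il21 and Tox2, genes of helper subsets, had 0 UMIs in the CD4_Tn cells of both suffixes. With 3 counts as the floor of a 0, a level of up to 0.0995 in suffix 1 is not detectable.

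Survival genes went both ways in suffix 1, with 3 higher and 2 lower of 6 beyond counting error, beside 11.7% and 21% of all genes. In suffix 2, 3 of 5 stood higher and 0 lower, where 10.8% of all genes stood higher and 10.6% lower. Mcl1 stood at 43.7 in CD4_Tn cells and 26.9 in CD4_Tcm cells of suffix 1, and at 35.6 and 17.7 in suffix 2. Bcl2l11, of the proapoptotic protein BIM, stood at 7.66 in CD4_Tn cells and 4.05 in CD4_Tcm cells of suffix 1, and Bcl10, a link from the receptor to NF-kB, at 9.06 and 3.99. The antiapoptotic Bcl2, given above, stood lower. Cflar stood at 4.38 in CD4_Tn cells and 6.36 in CD4_Tcm cells.

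The gene with the most UMIs on the lower side was Cd52, which encodes a small glycoprotein anchored on lymphocyte membranes. It stood at 30.4 in CD4_Tn cells and 81.4 in CD4_Tcm cells of suffix 1, and at 55.7 and 121 in suffix 2. CD4_Tcm had the highest Cd52 level of all 22 names in both suffixes, and CD4_Tn ranked 17 and 15. Others of the 10 lowest ratios had few UMIs in CD4_Tn cells. Pigc, of glycosylphosphatidylinositol anchor synthesis, had 3 UMIs in CD4_Tn cells and 17 in CD4_Tcm cells of suffix 1, and 3 and 4 in suffix 2. Pcmtd2 had 15 and 39 UMIs in suffix 1, and 1 and 11 in suffix 2. Sp3os and Gm10138, both annotated as antisense genes, had 9 and 25 and 7 and 21 UMIs in suffix 1. The noncoding 5430405H02Rik, whose interval excluded equal levels but not 2-fold, had 6 UMIs in CD4_Tn cells and 16 in CD4_Tcm cells. It overlaps Tgif2 on the opposite strand, and reads of such pairs cannot be told apart where counting ignores strand.

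Of the 17 interferon-response genes measured, 10 had enough UMIs in suffix 1, and 0 stood higher and 5 lower beyond counting error, with a median log2 ratio of -0.69. Over all genes 11.7% stood higher and 21% lower, with a median of -0.20. In suffix 2, 0 stood higher and 4 lower of 5, where 10.8% of all genes stood higher and 10.6% lower. Gbp7, a guanylate-binding protein gene, stood at 1.36 in CD4_Tn cells and 4.18 in CD4_Tcm cells of suffix 1, and at 1.41 and 7.73 in suffix 2. Ifi203 (chr1:173920407-173942672) stood at 6.53 in CD4_Tn cells and 13.5 in CD4_Tcm cells of suffix 1, and Mndal (chr1:173849126-173942491) at 7.66 and 14.1. These paralogs overlap on the same strand in the Ifi200 cluster, so their counts may not be fully separate. Isg15 stood at 2.06 in CD4_Tn cells and 2.87 in CD4_Tcm cells, within counting error. Summed over the list, the level was 28.5 in CD4_Tn cells and 51.2 in CD4_Tcm cells of suffix 1, and 35.1 and 77.1 in suffix 2.

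Receptors of the SLAM and CD2 families, which tune contacts between lymphocytes, stood mostly lower than in CD4_Tcm. Of 6 members with enough UMIs in suffix 1, 1 stood higher and 4 lower beyond counting error, beside 11.7% and 21% of all genes. In suffix 2, 0 of 4 stood higher and 3 lower, where 10.8% of all genes stood higher and 10.6% lower. Cd84 stood at 2.49 in CD4_Tn cells and 6.79 in CD4_Tcm cells of suffix 1, and at 1.41 and 4.27 in suffix 2. Ly9 stood at 1.29 in CD4_Tn cells and 3.12 in CD4_Tcm cells, Cd48 at 2.06 and 3.80, and Slamf6 at 3.55 and 5.05, while Cd2 was the member that stood higher. Of 10 genes of memory and tissue entry in suffix 1, 2 stood higher, Cxcr4 and Rgs1, and 5 lower beyond counting error, beside 11.7% and 21% of all genes. Il18r1, the interleukin-18 receptor gene, stood at 0.896 in CD4_Tn cells and 2.24 in CD4_Tcm cells of suffix 1. S100a4 stood at 2.89 in CD4_Tn cells and 3.93 in CD4_Tcm cells of suffix 1 within counting error, and at 1.98 and 8.13 in suffix 2, far below the 65.1 of CD4_Th in suffix 1.

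Lists of metabolism, antigen presentation, translation and division went different ways. Of 17 oxidative phosphorylation genes with enough UMIs, 0 stood higher and 10 lower than in CD4_Tcm beyond counting error in suffix 1, none of them past 2-fold, with a median log2 ratio of -0.54. Over all 1802 genes, 11.7% stood higher and 21% lower, and the median was -0.20. In suffix 2 the counts were 0 and 3 of 14, where 10.8% of all genes stood higher and 10.6% lower. Of 7 genes of class I antigen presentation, 0 stood higher and 4 lower in suffix 1, all of them proteasome subunits, and 0 and 2 in suffix 2. Of 16 ribosomal protein genes, 3 stood higher and 2 lower in suffix 1, beside the 11.7% and 21% of all genes. In suffix 2, 11 stood higher and 0 lower, beside 10.8% and 10.6%. Of 24 measured cell cycle genes, 8 had enough UMIs in suffix 1, and 3 stood higher and 0 lower, beside the same 11.7% and 21%. The 3 were Pcna, Cenpa and the histone gene H2afz. In suffix 2, 4 of 4 with enough UMIs stood higher, beside 10.8% of all genes. Set against all other cells of suffix 1, 2 of the 24 stood higher and 19 lower beyond counting error, beside 24.6% and 22% of all genes. The list summed to 59.9 in CD4_Tn cells and 42.3 in CD4_Tcm cells of suffix 1. CD4_Tfh, CD4_Th and CD4_Treg had 67.3, 87.3 and 112.8. The mitotic genes Nuf2 and Kif14 had 0 UMIs in the CD4_Tn cells of both suffixes.

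The contrasts with CD4_Tcm that passed 2-fold in suffix 1 mostly kept their direction in suffix 2. The cells of both suffixes were named from these same data, so suffix 2 is no independent check of the contrasts. Of the 29 genes higher in suffix 1, 26 were higher in CD4_Tn in suffix 2 as well, and of the 9 lower ones 8 were lower, some of them on fewer than 5 UMIs over both names. Among those with 20 or more UMIs over both names in suffix 2, 17 of 18 were higher and 4 of 4 lower. Over the 622 genes with enough UMIs in both suffixes, 42.3% were higher in CD4_Tn in suffix 2. Past 2-fold in suffix 2 there were 5 of 622 genes higher (0.804%) and 1 lower (0.161%), and beyond counting error alone 67 higher (10.8%) and 66 lower (10.6%). All 5 were among the 29, namely Nr4a3, Dusp10, Fosl2, Cxcr4 and Pnrc1, and the 1 lower gene, Gbp7, was among the 9.

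**Figure D4:**
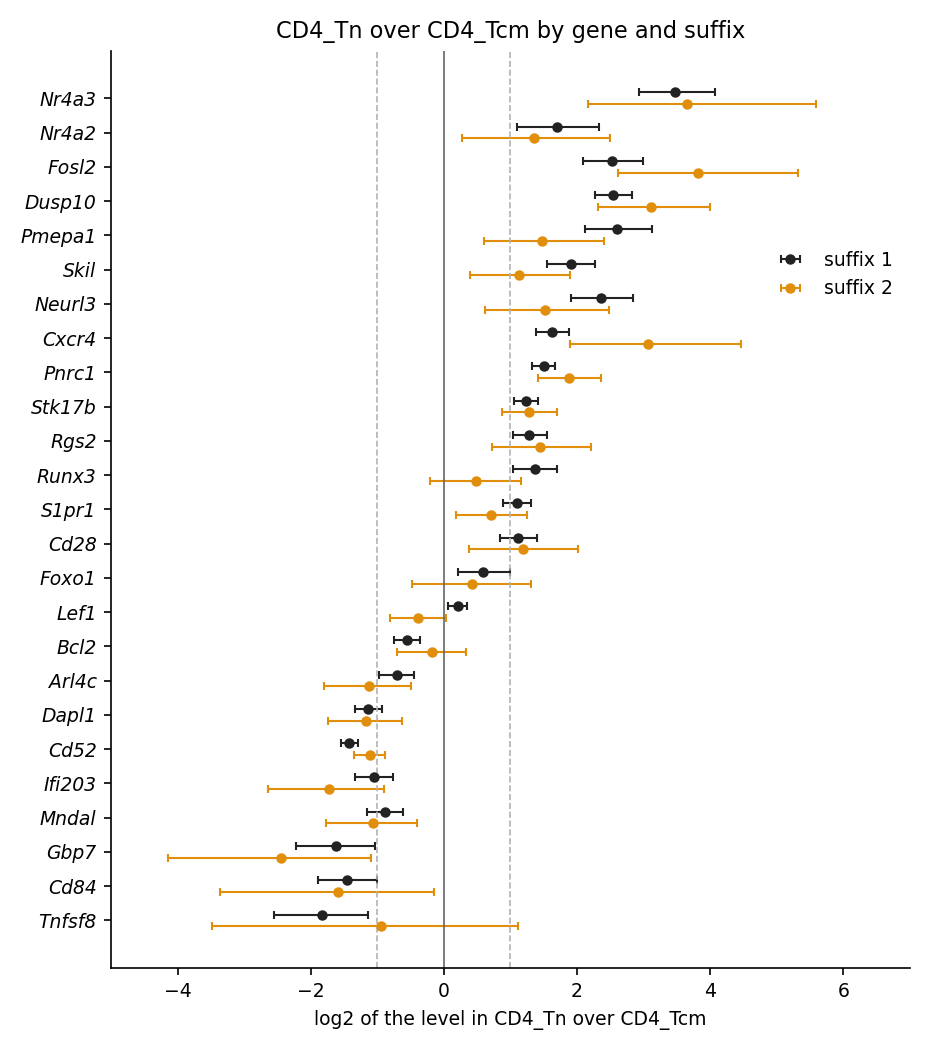
Log2 of the level in CD4_Tn over that in CD4_Tcm for selected genes in suffix 1 (black) and suffix 2 (orange), with exact 95% intervals as bars. The solid line marks equal levels and the dashed lines the 2-fold ratio. Nr4a3 stands at 3.47 and 3.65, Cd52 at -1.42 and -1.12, and Lef1 changes side at 0.21 and -0.38.

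Cell by cell, Lef1 was found in similar shares of CD4_Tn and CD4_Tcm cells, while Dusp10 and Nr4a3 were found in larger shares of CD4_Tn cells. In suffix 1 a Lef1 UMI was found in 85.5% [82.0, 88.6] of 462 CD4_Tn cells and 83.7% [78.6, 88.0] of 258 CD4_Tcm cells. Neutrophils, which should lack it, had a share of 0.508% at a median of 1120 UMIs per cell, and Macro_Maf macrophages 2.71% at 3652. Of the CD4_Tn cells, 67 had no Lef1 UMI, 80 had 1, 92 had 2, 87 had 3, 57 had 4 and 79 had 5 or more, up to 15 in a cell. A Dapl1 UMI was found in 37.0% of CD4_Tn cells and 53.5% of CD4_Tcm cells, and 45 CD4_Tn cells had neither gene.

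To set depth aside, each cell was thinned to 300 UMIs, which left out 5 CD4_Tn cells and 4 CD4_Tcm cells of suffix 1. Lef1 was then found in 68.1% of CD4_Tn cells and 61.8% of CD4_Tcm cells, with overlapping intervals. Dusp10 was found in 62.4% of CD4_Tn cells and 15.7% of CD4_Tcm cells, against 79.0% and 27.5% without thinning, and in 1.32% of thinned neutrophils. Nr4a3 was found in 32.8% of CD4_Tn cells and 6.30% of CD4_Tcm cells, against 52.4% and 8.91% without thinning. In suffix 2 Dusp10 was found in 45.9% of 37 thinned CD4_Tn cells and 4% of 50 thinned CD4_Tcm cells, and Nr4a3 in 16.2% and 2%.

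**Figure D5:**
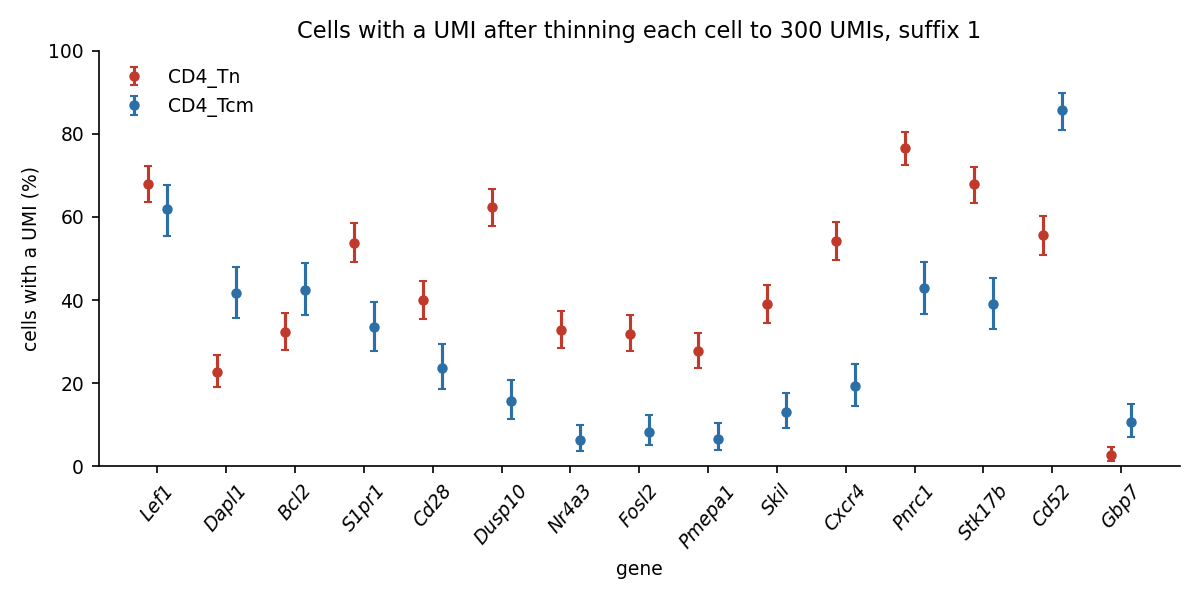
Share of cells with at least 1 UMI of each gene after thinning every cell to 300 UMIs, in percent, for CD4_Tn (red) and CD4_Tcm (blue) of suffix 1, with exact binomial 95% intervals as bars. Dusp10 reaches 62.4% and 15.7%, Cd52 55.6% and 85.8%, and the 2 Lef1 intervals overlap.

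UMIs of Nr4a3 and Dusp10 were divided unevenly over the CD4_Tn cells of suffix 1. Nr4a3 had 0 UMIs in 220 of 462 cells, 1 in 119, 2 in 38, 3 in 35, 4 in 19 and 5 or more in 31, up to 12. Dusp10 had 0 UMIs in 97 cells, 1 in 84, 2 in 78, 3 in 55, 4 in 53 and 5 or more in 95, up to 17. After thinning, Dusp10 was found in 69.3% of the CD4_Tn cells with Nr4a3 and 59.0% of those without. Nr4a3 was found in 33.8% of the thinned cells with Lef1 and 30.8% of those without. Dapl1 was found in 21.5% of the thinned cells with Lef1 and 25.3% of those without. These are shares within 1 sample, given as a description.

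Transcripts of other cell types were present in both names. The calprotectin genes S100a8 and S100a9, which neutrophils express at 5850, summed to 70.8 in CD4_Tn cells and 81.9 in CD4_Tcm cells of suffix 1, and to 27.2 and 27.2 in suffix 2. The complement genes C1qa, C1qb and C1qc summed to 10.98 in CD4_Tn cells and 11.2 in CD4_Tcm cells of suffix 1, against 430.1 in Macro_Maf. The whole neutrophil list of 10 measured genes ranged from 57.5 to 94.7 over the 5 CD4 names of suffix 1, and the macrophage list of 7 from 17.3 to 21.3. The B cell list summed to 5.37 in CD4_Tn cells and 6.61 in CD4_Tcm cells of suffix 1, and to 2.26 and 4.88 in suffix 2. The fibroblast list summed to 0.531 [0.303, 0.862] in CD4_Tn cells and 0.0623 [0.00158, 0.347] in CD4_Tcm cells of suffix 1, and to 0.283 and 1.22 in suffix 2. In CD4_Tn cells of suffix 1 the B cell genes Pax5 and Cr2, the stromal gene Serping1 and the epithelial gene Spint1 were at 0 UMIs. The list of regulatory T cells summed to 8.46 in CD4_Tn cells and 7.48 in CD4_Tcm cells, against 360.1 in CD4_Treg, and its member Il1rl1 was at 0 UMIs. A C1q UMI or 5 or more calprotectin UMIs were found in 313 of the 462 CD4_Tn cells and 187 of the 258 CD4_Tcm cells. Without those cells, 11 genes stood higher in CD4_Tn past 2-fold and 3 lower. Of these, 9 of the 11 and 1 of the 3 were among the 29 and the 9. The log2 ratios were then 3.56 for Nr4a3, 2.29 for Pmepa1, 2.63 for Dusp10, 2.92 for Fosl2 and -1.36 for Cd52. With all cells they were 3.47, 2.60, 2.55, 2.53 and -1.42, in that order. Cells with fewer calprotectin UMIs and no C1q UMI were kept, and 453 of the 462 CD4_Tn cells held some calprotectin UMI. The part of such transcripts in the calls was not tested.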

How the data were processed

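UMI counts per gene and cell were deposited by the authors as 1 table, with a second file naming each barcode. Cell Ranger, Seurat and the builds GRCm38 and mm10 are listed in the submitters' processing notes, without versions, and no header says whether strand was used. The table gave 4099 complete gene rows and 1 incomplete row, which was left out. Of the genes, 4067 matched GENCODE symbols on GRCm38 and 32 did not. Of the names in the annotation, 1 is not reported here, nor are some genes of the lists and of the rule for named genes. Cells kept the authors' names, with no filter on cells and no doublet caller.

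From these counts, UMIs were summed over the cells of a name within a suffix. Levels have exact Poisson intervals, ratios exact conditional binomial intervals and shares Clopper-Pearson intervals, all at 95% and covering counting error only. A gene was compared with 20 or more UMIs over both sides, and called past 2-fold where its whole interval lay beyond that ratio. A level of 0 was given a floor of 3 counts. Thinning used a fixed seed, to 300 or 500 UMIs. The steps were tested on simulated data. Sums and intervals came from scipy 1.17.1 and numpy 2.4.6 under Python 3.11.15, tables from pandas 2.3.3, and plots from matplotlib 3.10.9.

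Named genes were the 10 highest and 10 lowest ratios to CD4_Tcm and the 15 highest and 10 lowest to all other cells in suffix 1, members of 29 gene lists, Lef1 and Dapl1. Where fewer than 10 passed 2-fold, the rest were taken from genes whose interval excluded equal levels. Members and lists were chosen with earlier results of these data known. With 1 sample per suffix no test was run, and suffixes 3 and 4 were used for shares only.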

Additional observations from a re-analysis of the deposited data

How the results depend on the processing

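Against CD4_Tcm, the 29 genes higher in CD4_Tn past 2-fold became 5 in suffix 2 and 11 without cells holding C1q or 5 S100 UMIs. The 9 lower genes became 1 in suffix 2, 16 with no minimum of UMIs, 4 with a minimum of 100 UMIs and 3 without those cells. Suffix 2 and the reduced cell set hold fewer UMIs by construction. The share of calls that were higher was 76.3% as reported, 64.4% with no minimum, 85.2% with a minimum of 100 and 84.6% in UMIs per cell. Against all other cells, the 363 higher genes became 84 in suffix 2, 218 without S100a8 and S100a9 in the denominator, 594 without ribosomal protein genes and 51 in UMIs per cell. The 340 lower genes became 107 in suffix 2, 224 without ribosomal protein genes, 1648 in UMIs per cell and 170 without T cells holding C1q or 5 S100 UMIs. The share higher was 51.6% as reported, 44.0% in suffix 2, 30.8% without S100a8 and S100a9, 72.6% without ribosomal protein genes, 3.002% in UMIs per cell and 62.3% without those T cells.

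The share of CD4_Tn in suffix 1 was 3.51% of annotated cells and 41.5% of the CD4 names. The naive list level of 124 was 194 without ribosomal protein genes, 87.1 in suffix 2 and 70.1 without Lef1 and Dapl1. The share of CD4_Tn cells with a Lef1 UMI was 85.5%, and 68.1% after thinning to 300 UMIs. Of the 33 genes followed through the alternatives, the log2 ratio to CD4_Tcm changed sign in suffix 2 for Spsb1 at -0.26, Pigc at 0.062 and Lef1 at -0.38, and the cause was not tested. Tgif2 and Clic4, of the 29 but not followed, each stood at -0.11 in suffix 2. Of 261 alternative values over the 33 genes, 216 kept direction and call, 39 kept direction but not the call (9 of them only for having under 100 UMIs, at an unchanged ratio), 3 newly passed 2-fold and 3 changed sign. No paired analysis was possible because barcode suffixes are not tied to samples. No replicate could be left out, since each value rests on 1 suffix.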

Other observations

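Suffixes 3 and 4 were not analysed here beyond their names. In suffix 4 the 248 CD4_Tn cells made up 21.9% of the cells with CD4 names, and in suffix 3 the 28 CD4_Tn cells made up 11.8%. No barcode sequence was shared between CD4_Tn cells of any pair of suffixes.

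Within CD4_Tn cells of suffix 1, thinned to 300 UMIs, Cxcr4 was found in 54.1% of cells with S1pr1 and 54.5% of cells without it. In CD4_Tcm cells of suffix 1 the shares were 17.6% and 20.1%. S1pr1 and Cxcr4 steer opposite movements, out of lymph nodes and towards CXCL12. The translation factors of the list, a group the text has not described, summed to 188.8 in CD4_Tn cells and 195.3 in CD4_Tcm cells of suffix 1, against 158.6 in CD4_Tfh, 151.4 in CD4_Th and 129.5 in CD4_Treg.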
